A study of Mus musculus with 6 samples.

Results

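The genes of glucose use in DN3 thymocytes of miR-185 transgenic mice are described here: 36 named genes for glucose uptake, glycolysis, lactate handling, the pentose phosphate pathway and their control by hypoxia signalling. They were chosen by name, as the probes whose gene name was a listed gene or its older symbol (Pkm stands as PKM2 in the table). Of the 36 genes, 34 had a probe, among 28888 distinct gene names, and they had 60 probes in all. A probe was kept if it was detected above background on at least 3 of the 6 arrays, which left 41 probes and 29 of the genes, among 12426 genes tested. Hk2 and Ldhb were not analysed here, and Eno2, Slc16a1, Pdk2, Pfkfb3 and Bnip3 had probes of which 0 passed the detection filter. Of the 29 genes, 28 were detected on all 6 arrays, the exception being Slc16a3.

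RNA came from 3 samples of miR-185 Tg mice and 3 samples of wild-type (WT) mice, both labelled C57BL/6, and was hybridised to Illumina mouse bead arrays, 1 array for each sample. The study searched for molecular targets of miR-185. The cells were sorted as DN3 thymocytes, which carry CD25 and lack CD44, CD4, CD8 and markers of B, NK, gamma-delta T and myeloid cells. The promoter of the transgene, the age of the mice and whether a sample was 1 mouse or a pool are not given in the sources used here, so the p-values rest on differences among arrays that may be partly technical.

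Glycolysis splits glucose into pyruvate and yields ATP, and fast-dividing cells turn much of the pyruvate into lactate even when oxygen is present. The pentose phosphate pathway branches off after the hexokinase step and supplies NADPH and the ribose of nucleotides. The transcription factors HIF1 and MYC activate many genes of both routes. DN3 thymocytes are the stage at which a rearranged T cell receptor beta chain is tested, and cells that pass this test enlarge, take up more glucose and divide.

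Between 39.5% and 41.8% of 45281 probes were detected on each array, with a median of 41 to 42 beads for each probe, and the number of arrays limits the precision. Tg 2 stood apart from the other 5 arrays on the first principal component of all genes, which held 45.6% of the variance. WT 2 and WT 3 were close to each other: over 5453 bright probes their mean squared difference was 2.78 times the noise between beads, and the same measure was 25.6 or more in the remaining pairs. All 12 DN3 markers measured were detected, among them Il2ra, the gene of CD25, which had log2 intensities of 10.85 to 11.09 in Tg cells and 8.96 to 9.75 in WT cells, and Cd4 and Cd8a did not pass the detection filter. Cd8b1 did pass, at 10.48 to 11.36 in Tg cells and 10.82 to 11.09 in WT cells. The 2 globin genes measured, of 6 erythroid markers with a probe, had a summed intensity of 974 to 2094 in Tg cells and of 401 to 14895 in WT cells, WT 1 being the lowest array.

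The transcripts that changed belong to separate steps of glycolysis. Tpi1, which interconverts the triose phosphates, Pgam2, the muscle form of phosphoglycerate mutase, and Ldha, the subunit of lactate dehydrogenase that favours lactate formation, fell in Tg cells. Of the 29 genes measured, 3 fell and 0 rose (limma, Benjamini-Hochberg adjusted p under 0.05 over all 12426 genes), where 4.23% of all genes passed, 1.68% falling and 2.55% rising. At an unadjusted p under 0.05, 8 of the 29 were lower and 0 higher, against 8.89% and 11.1% of all genes. The median log2 fold change, Tg over WT, was -0.23 for the 29 genes, of which 20 were negative. It was -0.0014 for all genes tested, of which 50.1% were negative. The 3 Tg values all lay below the 3 WT values for 8 of the 29 genes and all above them for 3, where 13.2% and 14.9% of all genes did so. The genes were chosen with results of these samples known, so these counts describe the list and test nothing about it.

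**Figure D1:**
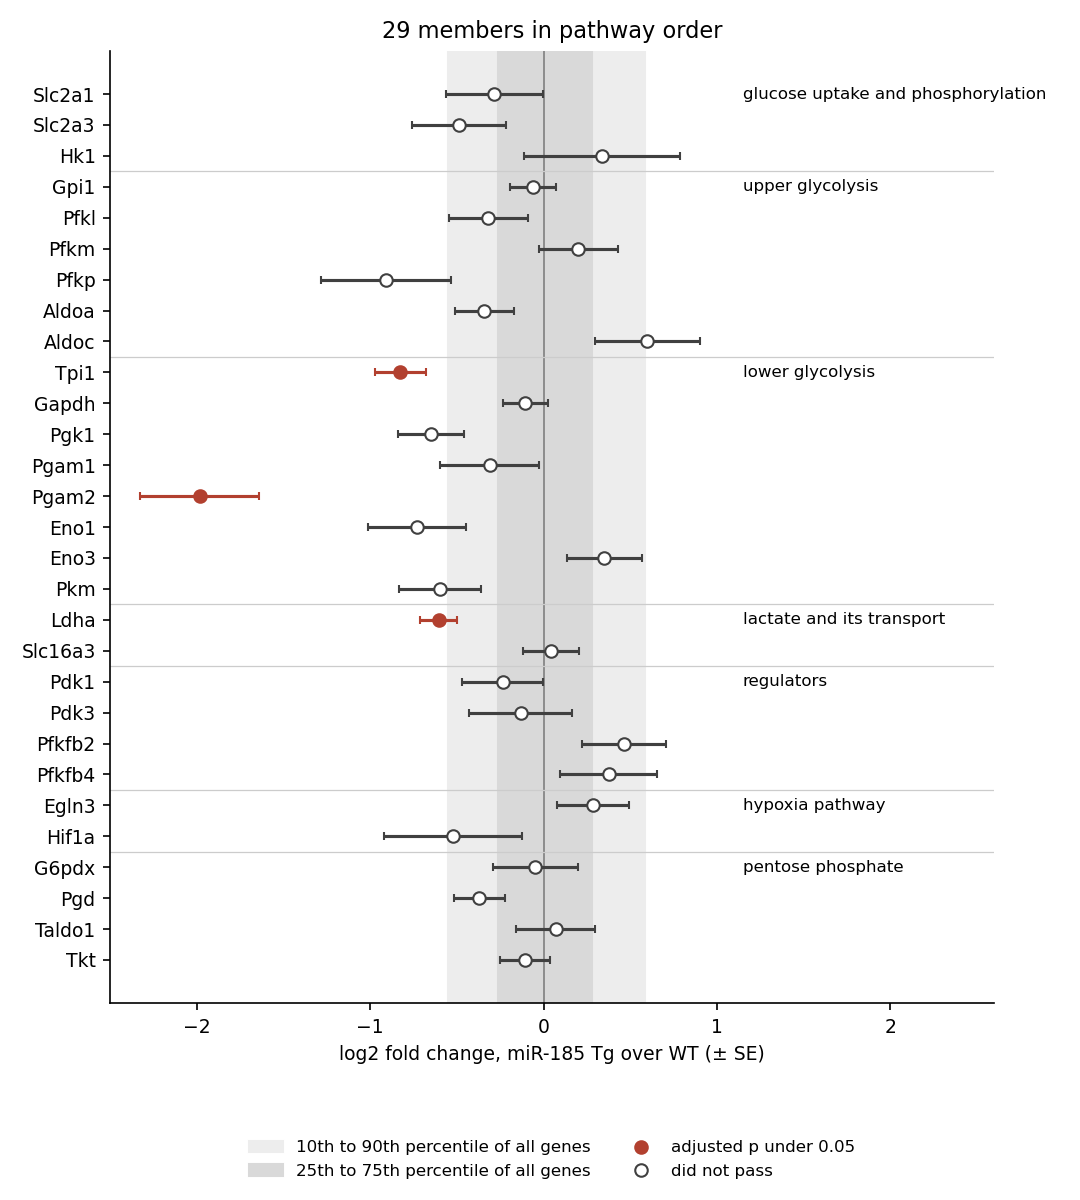
Log2 fold change of each of the 29 measured genes, miR-185 Tg over WT (x axis, point ± SE), in pathway order down the page, with the central ranges of all 12426 genes as grey bands. Filled points are the 3 genes that passed, Tpi1, Pgam2 and Ldha, and 7 of the 8 genes of lower glycolysis that were measured lie left of 0.

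Ldha was among the brightest of the 29 genes. Its log2 intensity was 12.46, 12.53 and 12.63 in Tg 1, 2 and 3, against 13.15, 13.13 and 13.15 in WT 1, 2 and 3. The WT arrays differed little, with an SD of 0.0119, and the Tg arrays all lay below them. Ldha was 1.52-fold lower in Tg cells, with a log2 fold change of -0.60 ± 0.11 (SE; limma, adjusted p = 0.0252). The deposited intensities before normalization were 5604, 7657 and 5234 in Tg 1, 2 and 3, and 10782, 8256 and 8493 in WT 1, 2 and 3, so the groups were also apart there. Fewer cells that express a gene and less RNA for each cell cannot be told apart in such bulk samples.

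Tpi1 had 3 kept probes. The brightest gave log2 intensities of 11.48, 11.75 and 11.77 in Tg 1, 2 and 3, and of 12.68, 12.39 and 12.42 in WT 1, 2 and 3, with no overlap between the groups. Tpi1 was 1.77-fold lower in Tg cells by this probe, with a log2 fold change of -0.83 ± 0.15 (SE; limma, adjusted p = 0.0258). The probe of middle brightness had a log2 difference, Tg minus WT, of -0.76, also without overlap. The third gave 8.82, 9.77 and 7.77 in Tg 1, 2 and 3, and 9.08, 9.25 and 9.29 in WT 1, 2 and 3. Here Tg 2 was the highest array and Tg 3 the lowest, and with the mean of the 3 probes Tpi1 did not pass (log2 fold change -0.67, adjusted p = 0.106, limma).

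Pgam2 showed the largest fold change of the 29 genes. Its single probe had log2 intensities of 4.95, 6.15 and 6.10 in Tg 1, 2 and 3, against 7.65, 7.80 and 7.70 in WT 1, 2 and 3. The groups were clearly apart, with Tg 1 the lowest array. Pgam2 was 3.95-fold lower in Tg cells, with a log2 fold change of -1.98 ± 0.34 (SE; limma, adjusted p = 0.0243). The probe was dim, with deposited intensities of 119.2, 158.0 and 142.7 in Tg 1, 2 and 3 and 307.0, 298.8 and 283.9 in WT 1, 2 and 3, where the lowest intensity on each array was 83.9 to 91.1. Without background correction its log2 fold change was -1.07 (adjusted p = 0.0149, limma). Of a list of 8 genes taken as muscle markers, Ckm, Myh4, Acta1, Tnnt3, Myl1, Mb and Pvalb did not pass the detection filter. The other, Ckb, encodes the brain form of creatine kinase and is not specific to muscle; it had log2 intensities of 5.31 to 6.00 in Tg cells and 6.47 to 7.38 in WT cells (adjusted p = 0.0631, limma). Its part in the Pgam2 result was not tested.

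All 3 calls depended on single arrays, as did most calls over all genes. In limma 526 genes passed, against 49 without Tg 1 and 1, 47 and 2 without WT 1, WT 2 and WT 3. The 3 calls were lost in each of these fits. Without Tg 1 the adjusted p of Ldha, Tpi1 and Pgam2 was 0.0868, 0.0868 and 0.0591 in limma. Without WT 1 it was 0.12, 0.125 and 0.112, without WT 2 it was 0.146, 0.116 and 0.122, and without WT 3 it was 0.17, 0.138 and 0.13. The fold changes themselves stayed negative in the 6 fits with 1 array left out. The log2 fold change ran from -0.65 to -0.56 for Ldha and from -0.88 to -0.73 for Tpi1. That of Pgam2 moved more, from -2.19 to -1.59. With WT 2 and WT 3 averaged as 1 sample, 0 of the 29 genes passed in limma, where 36 of all genes, or 0.29%, passed. Without Tg 2, 5 of the 29 fell and 1 rose, while 13.8% of all genes passed. Over 19 alternatives, leave-outs included, the adjusted p in limma ran from 5e-05 to 0.228 for Ldha, from 4.23e-05 to 0.173 for Tpi1 and from 6.31e-06 to 0.13 for Pgam2. Median scaling in place of quantile normalization ended the calls of Ldha and Tpi1 but not that of Pgam2.

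The promoters of the genes that fell are shown because HIF1 and MYC, which activate many genes of these pathways though not each one, bind short motifs. HIF1 binds the hypoxia response element, whose core was searched as ACGTG or GCGTG, and MYC binds the E-box CACGTG, which holds ACGTG on both strands and so also counts as that core. Each window is the RefSeq promoter window of 300 bases around the annotated start of the gene, on GRCm38.p6, and is given 5′ to 3′ on the strand of the gene, with motif matches on either strand in capitals. The windows are chr7:46845554-46845853 on the plus strand for Ldha, chr6:124814109-124814408 on the minus strand for Tpi1 and chr11:5803747-5804046 on the minus strand for Pgam2.
Ldha: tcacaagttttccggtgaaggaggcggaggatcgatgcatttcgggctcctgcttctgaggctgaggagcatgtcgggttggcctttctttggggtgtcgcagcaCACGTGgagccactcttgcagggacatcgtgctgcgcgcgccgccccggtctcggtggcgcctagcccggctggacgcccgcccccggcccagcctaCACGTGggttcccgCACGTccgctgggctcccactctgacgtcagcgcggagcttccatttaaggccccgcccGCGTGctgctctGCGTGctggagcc
Tpi1: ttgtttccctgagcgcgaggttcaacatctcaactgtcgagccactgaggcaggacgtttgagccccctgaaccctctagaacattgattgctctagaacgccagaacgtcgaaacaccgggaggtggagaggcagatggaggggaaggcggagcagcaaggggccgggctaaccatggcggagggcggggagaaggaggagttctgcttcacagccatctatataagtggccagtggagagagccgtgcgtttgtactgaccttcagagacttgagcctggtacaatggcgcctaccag
Pgam2: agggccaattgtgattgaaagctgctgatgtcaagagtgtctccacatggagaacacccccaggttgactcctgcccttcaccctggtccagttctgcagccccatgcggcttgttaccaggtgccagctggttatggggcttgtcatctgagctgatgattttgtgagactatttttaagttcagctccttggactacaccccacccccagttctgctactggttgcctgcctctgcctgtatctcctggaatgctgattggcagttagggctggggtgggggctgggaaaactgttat
The Ldha window held 2 E-boxes, another ACGTG core and 2 GCGTG cores, while those of Tpi1 and Pgam2 held 0 of the motifs. Of 35 listed genes with a promoter window, 28 held at least 1 ACGTG or GCGTG core, or 80.0%, and 6 held an E-box, or 17.1%. Of 27025 promoters, 1 for each gene, 43.8% held a core and 7.24% an E-box. A match is a stretch of letters and not a measured binding site, and binding was not measured here.

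At the entry of the pathway, 0 of 3 measured genes passed in limma, with 0 at an unadjusted p under 0.05. Of all genes, 4.23% and 20% did so, so these counts say little about so few genes. Slc2a1, the gene of the glucose transporter GLUT1, had log2 intensities of 8.01, 8.77 and 7.85 in Tg 1, 2 and 3 and of 8.55, 8.40 and 8.53 in WT 1, 2 and 3. Slc2a3, the gene of the high-affinity transporter GLUT3, had 7.66, 8.12 and 7.24 in Tg 1, 2 and 3 and 8.23, 8.03 and 8.21 in WT 1, 2 and 3. For both transporters Tg 1 and Tg 3 lay below all WT arrays and Tg 2 did not. Their log2 fold changes were -0.28 ± 0.28 and -0.49 ± 0.27 (SE; limma, adjusted p = 0.631 and 0.375). Hk1, which phosphorylates glucose, spread over 6.13 to 7.85 in Tg cells and 6.49 to 7.10 in WT cells, with a log2 fold change of 0.34 ± 0.45 (SE; limma, adjusted p = 0.739).

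In upper glycolysis, from glucose 6-phosphate to the triose phosphates, 0 of 6 measured genes passed in limma, against 4.23% of all genes. Among the 6, 1 gene, Pfkp, had an unadjusted p under 0.05, against 20% of all genes. The isoforms of phosphofructokinase, which commits sugar to glycolysis, did not share a direction. Pfkp, the platelet form, had log2 intensities of 7.89, 7.89 and 6.56 in Tg 1, 2 and 3 and of 8.19, 8.47 and 8.41 in WT 1, 2 and 3, with Tg 3 the lowest. Its log2 fold change was -0.91 ± 0.38 (SE; limma, adjusted p = 0.228), and a dimmer probe had a log2 difference of -1.18 without overlap. Pfkl, the liver form, had a log2 fold change of -0.32 ± 0.23 and Pfkm, the muscle form, of 0.20 ± 0.23 (SE; limma, adjusted p = 0.496 and 0.683). The 3 kept probes of Pfkm had log2 differences of 0.20, 0.34 and -0.20, and it was the 1 gene of 9 with several kept probes whose probes lay on both sides of 0. The aldolases also pointed opposite ways. Aldoa had 9.74, 9.91 and 9.91 in Tg 1, 2 and 3 and 10.32, 10.02 and 10.25 in WT 1, 2 and 3. Aldoc had 6.73, 7.65 and 6.75 in Tg 1, 2 and 3 and 6.27, 6.58 and 6.50 in WT 1, 2 and 3. The groups overlapped in neither, and the log2 fold changes were -0.34 ± 0.17 and 0.60 ± 0.30 (SE; limma, adjusted p = 0.318 and 0.323). Gpi1, the isomerase of glucose 6-phosphate, differed least, with a log2 fold change of -0.06 ± 0.13 (SE).

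Lower glycolysis, from the triose phosphates to pyruvate, had the most negative median of the steps. Of 8 measured genes, 2 fell, 5 were lower at an unadjusted p under 0.05 and 7 had negative log2 fold changes. Of all genes, 1.68%, 8.89% and 50.1% did so. The median was -0.62, against -0.19 for upper glycolysis. The difference between these medians was not tested. Pgk1, phosphoglycerate kinase, had log2 intensities of 10.59, 10.46 and 10.85 in Tg 1, 2 and 3 and of 11.58, 11.22 and 11.05 in WT 1, 2 and 3. The groups did not overlap, yet the gene missed the threshold, at a log2 fold change of -0.65 ± 0.19 (SE; limma, adjusted p = 0.104). Eno1, the common enolase, had 9.92, 10.52 and 9.35 in Tg 1, 2 and 3 and 10.59, 10.61 and 10.79 in WT 1, 2 and 3. Tg 2 lay just under the WT arrays and Tg 3 far below them, for a log2 fold change of -0.73 ± 0.28 (SE; limma, adjusted p = 0.199). Pkm, pyruvate kinase, had 10.31, 11.22 and 10.75 in Tg 1, 2 and 3 and 11.46, 11.18 and 11.43 in WT 1, 2 and 3. Tg 2 overlapped the WT arrays, and the log2 fold change was -0.60 ± 0.24 (SE; limma, adjusted p = 0.21). Eno1 and Pkm passed without Tg 2, with log2 fold changes of -1.02 and -0.83 (adjusted p = 0.0178 and 0.0241, limma). In that fit 13.8% of all genes passed. Over all alternatives their adjusted p in limma ran from 0.000626 to 0.528 and from 0.00024 to 0.533.

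The remaining genes of this stretch did not pass. Gapdh, which is often taken as a reference transcript, had log2 intensities of 12.73, 13.10 and 12.79 in Tg 1, 2 and 3 and of 12.98, 12.98 and 12.97 in WT 1, 2 and 3. Tg 2 was above and Tg 1 and Tg 3 were below the WT arrays, for a log2 fold change of -0.10 ± 0.13 (SE; limma, adjusted p = 0.711). Pgam1, the common form of phosphoglycerate mutase, had a log2 fold change of -0.31 ± 0.28, with 7.45 to 8.23 in Tg cells and 7.83 to 8.30 in WT cells (SE; limma, adjusted p = 0.605). As for Pkm, Tg 1 and Tg 3 lay below all WT arrays for Gapdh and Pgam1. With array weights, which lower the part of arrays that vary more, Gapdh and Pgam1 passed at -0.23 and -0.65 (adjusted p = 0.0281 and 0.0107, limma). Under that setting 36% of all genes passed, and 17.1% fell, so passing there sets these 2 genes little apart. Eno3, the muscle form of enolase, had 6.98, 7.01 and 6.84 in Tg 1, 2 and 3 and 6.64, 6.40 and 6.73 in WT 1, 2 and 3. All Tg arrays were above all WT arrays, with a log2 fold change of 0.35 ± 0.22 (SE; limma, adjusted p = 0.424). Thus the muscle isoforms Pgam2 and Eno3 had fold changes of opposite sign. Many glycolytic genes have processed copies in the genome, and whether a probe also binds transcripts of such a copy was not tested, since probe sequences were not used here.

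**Figure D2:**
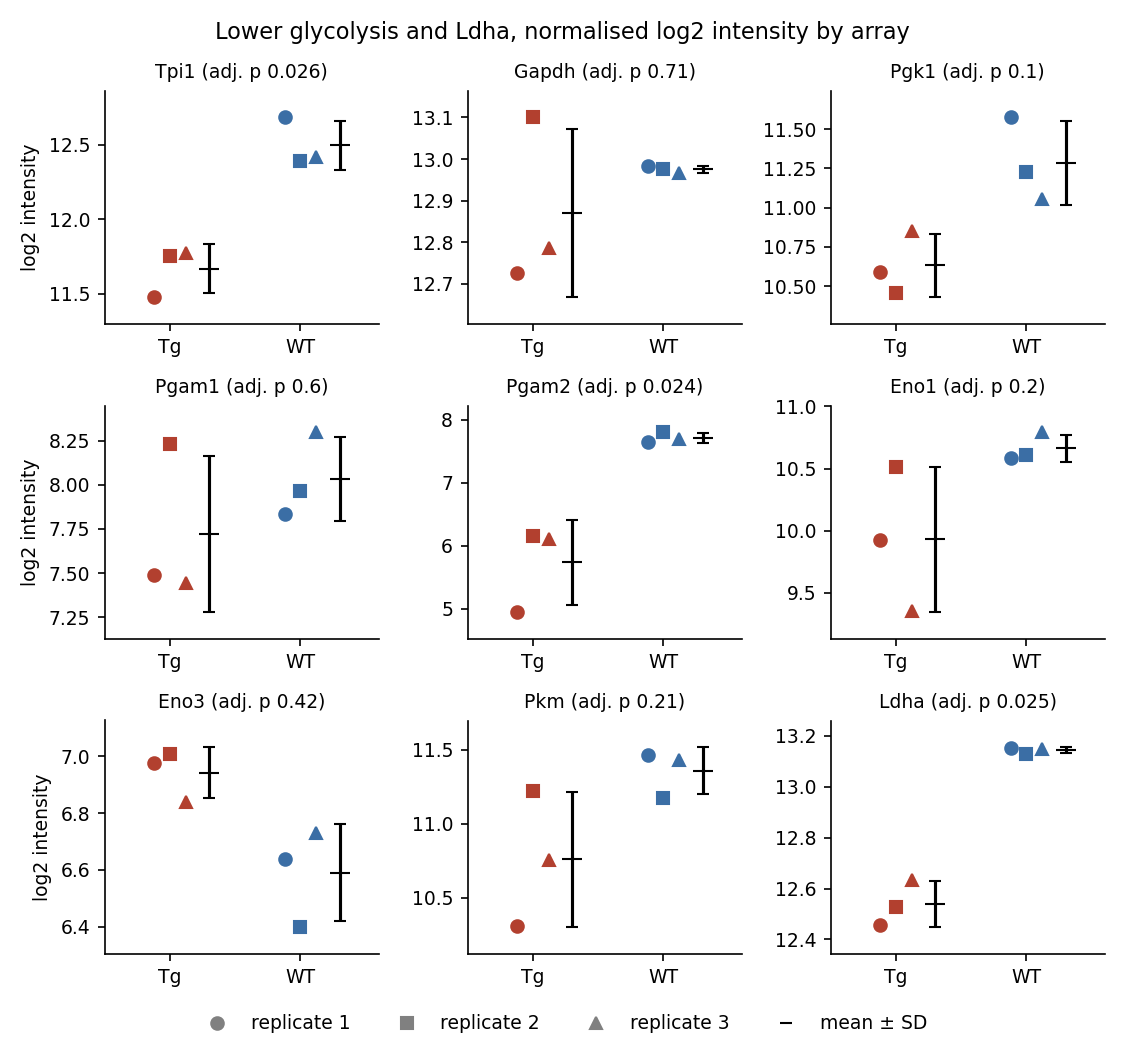
Normalised log2 intensity (y axis, a scale of its own for each gene) of the lower glycolysis genes and Ldha in 3 miR-185 Tg and 3 WT arrays, with symbols for the replicates and bars for the mean ± SD. Tpi1, Pgk1, Pgam2, Eno1 and Ldha are lower on every Tg array, Eno3 is higher on every Tg array, and Tg 2 lies within or above the WT arrays for Gapdh, Pgam1 and Pkm.

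For lactate export, Slc16a3, the gene of the transporter MCT4, was at the limit of detection. It was detected on 2 Tg arrays and 1 WT array, with log2 intensities of 4.57 to 4.75 in Tg cells and 4.41 to 4.93 in WT cells (log2 fold change 0.04 ± 0.16, SE). No probe of Slc16a1, the gene of MCT1, was detected on any array.

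The kinases that set the flow into and out of glycolysis did not pass. The pyruvate dehydrogenase kinases Pdk1 and Pdk3, which inhibit pyruvate dehydrogenase and so limit the conversion of pyruvate to acetyl-CoA, had log2 fold changes of -0.23 ± 0.23 and -0.13 ± 0.30 (SE; limma, adjusted p = 0.639 and 0.857). Pdk1 was 1 of only 4 genes of the 29 whose lowest Tg value was in Tg 2, with 9.18, 8.47 and 8.83 in Tg 1, 2 and 3 and 8.93, 9.06 and 9.18 in WT 1, 2 and 3. Pfkfb2 and Pfkfb4, which set the level of the phosphofructokinase activator fructose 2,6-bisphosphate, had positive log2 fold changes of 0.46 ± 0.24 and 0.38 ± 0.28 (SE; limma, adjusted p = 0.342 and 0.518). Pfkfb2 had 6.82, 6.17 and 6.71 in Tg 1, 2 and 3 and 5.99, 6.12 and 6.20 in WT 1, 2 and 3, so that Tg 2 lay among the WT arrays. Without Tg 2, Pfkfb2 rose by 0.66 on the log2 scale (adjusted p = 0.0471, limma, where the alternatives ran from 0.00557 to 0.621). In that fit 13.8% of all genes passed.

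Of the hypoxia pathway, Hif1a, the oxygen-regulated subunit of HIF1, had log2 intensities of 6.53, 6.31 and 5.53 in Tg 1, 2 and 3 and of 5.88, 7.03 and 7.03 in WT 1, 2 and 3. WT 1 lay among the Tg arrays, and the log2 fold change was -0.52 ± 0.40 (SE; limma, adjusted p = 0.524). Egln3, a prolyl hydroxylase that marks HIF subunits for breakdown and is itself a HIF target, had 9.01, 9.48 and 9.05 in Tg 1, 2 and 3 and 8.93, 8.95 and 8.80 in WT 1, 2 and 3. All its Tg values were the higher ones, by a log2 fold change of 0.28 ± 0.21 (SE; limma, adjusted p = 0.503). Bnip3, a mitophagy gene and HIF target, was detected on 0 arrays. Transcript levels of Hif1a do not measure the HIF1 protein, which is set mainly by its breakdown.

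In the pentose phosphate pathway 0 of 4 genes passed in limma, against 4.23% of all genes. At an unadjusted p under 0.05, 1 of the 4 was lower, Pgd, against 8.89% of all genes. Pgd, the NADPH-forming phosphogluconate dehydrogenase, had log2 intensities of 10.38, 10.54 and 10.42 in Tg 1, 2 and 3 and of 10.81, 10.87 and 10.78 in WT 1, 2 and 3. The groups did not overlap, and the log2 fold change was -0.37 ± 0.14 (SE; limma, adjusted p = 0.205). G6pdx, the entry enzyme, differed by -0.05 ± 0.25 on the log2 scale, and the carbon-shuffling enzymes Taldo1 and Tkt by 0.07 ± 0.23 and -0.11 ± 0.15 (SE). Their groups overlapped, and the adjusted p of these 3 was at least 0.742 in limma.

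Within the Tg group, the arrays did not shift together. Relative to the WT mean of each gene, the median of the 29 genes was -0.16 in Tg 1, 0.06 in Tg 2 and -0.40 in Tg 3 on the log2 scale, while the median of all genes was 0.0054, 0.012 and 0.0091. Of the 29 genes, 17, 10 and 22 were below all WT arrays in Tg 1, 2 and 3, where 35.6%, 39.4% and 36.8% of all genes were. Tg 2 was the highest Tg array for 20 of the 29 genes and Tg 3 the lowest for 16. The lower median of the list was thus carried by Tg 3 and Tg 1, while Ldha, Tpi1, Pgam2, Pgk1, Pfkp, Aldoa, Eno1 and Pgd were below WT on every Tg array. The median fold change of the 29 genes stayed negative whichever array was left out, from -0.37 to -0.17. Without the detection filter, over all 34 genes with a probe, it was -0.12.

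**Figure D3:**
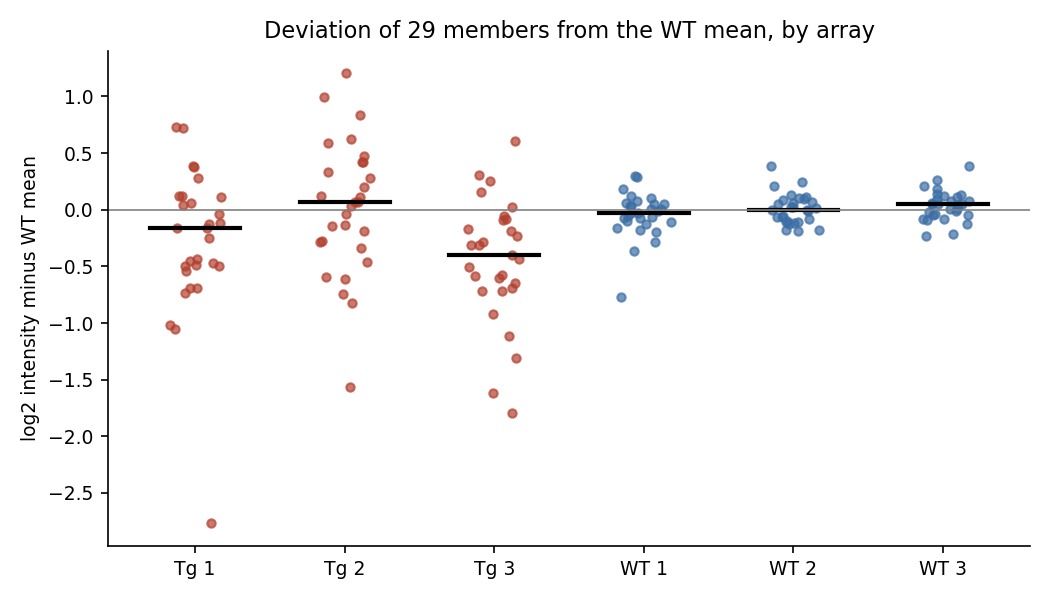
Log2 intensity of each of the 29 genes minus the WT mean of that gene (y axis) on each array, with points for genes and black bars for medians of -0.16, 0.06 and -0.40 in Tg 1, 2 and 3. The WT arrays lie close to 0 in part because their own mean was subtracted, and Tg 2 is centred near 0 while Tg 3 lies below.

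**Figure D4:**
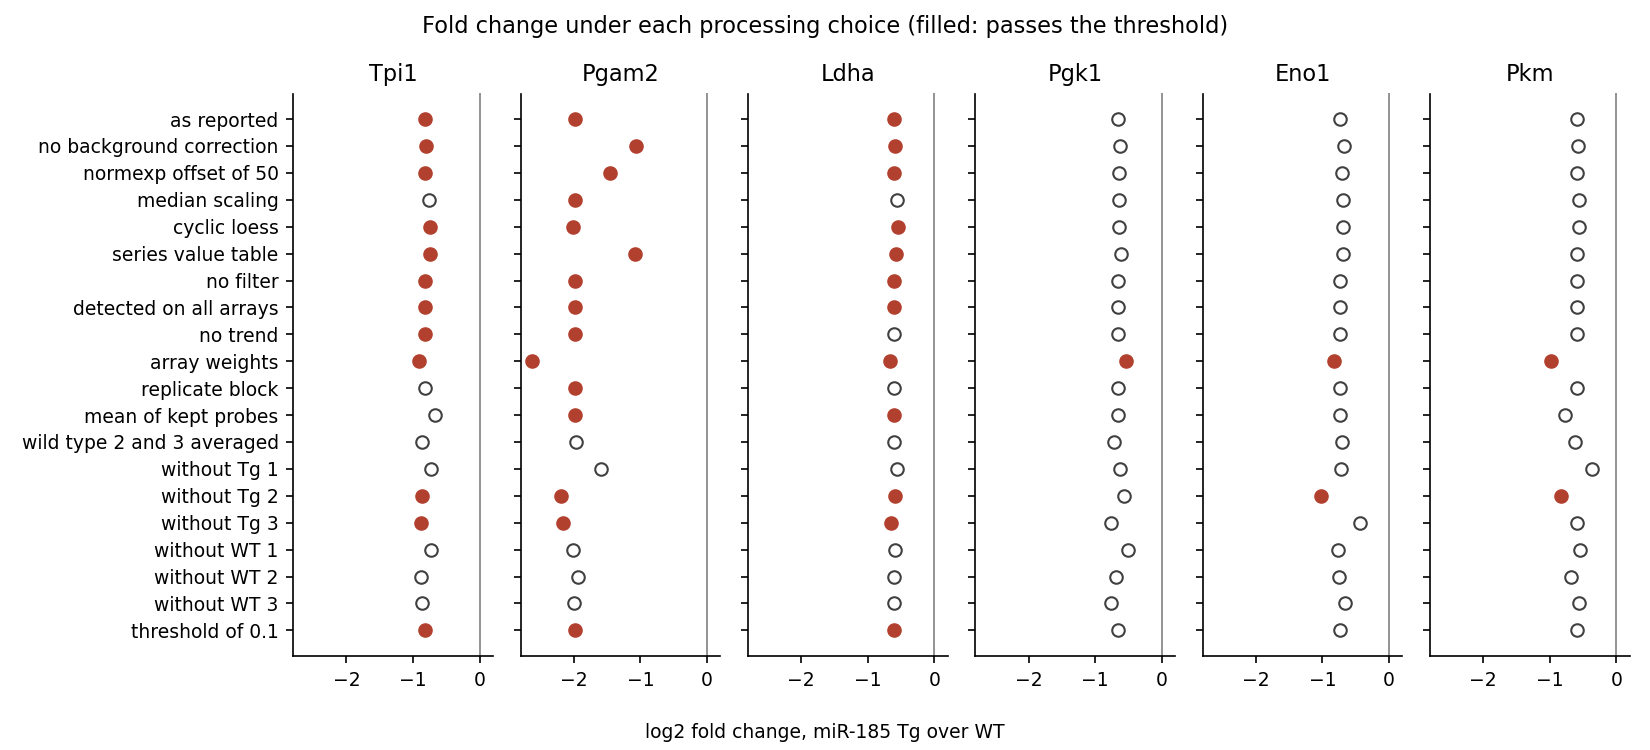
Log2 fold change, miR-185 Tg over WT (x axis), of Tpi1, Pgam2, Ldha, Pgk1, Eno1 and Pkm under each way of processing (rows), filled where the gene passed the adjusted p threshold. The fold changes stay below 0 in every row, while the calls of Tpi1, Pgam2 and Ldha are lost when Tg 1 or any WT array is left out.

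Further genes of the same pathways, taken from a list of 48, did not show a lower median. Of 46 with a probe, 25 were measured, with a median log2 fold change of 0.06. In limma 1 passed as higher and 0 as lower, against 2.55% and 1.68% of all genes. At an unadjusted p under 0.05, 4 were higher and 1 lower, against 11.1% and 8.89% of all genes. The gene that passed was Hk3, a hexokinase of myeloid cells, with log2 intensities of 5.19, 5.20 and 4.85 in Tg 1, 2 and 3 and of 4.36, 4.22 and 4.24 in WT 1, 2 and 3 (limma, adjusted p = 0.0255). Hk3 was detected on all 3 Tg arrays and on 0 WT arrays, so it entered the test only through the group in which it was higher, and with detection required on all arrays it was not tested. No fold is given, since the WT arrays were not above background and the size of the difference depended on the background correction. Its call was also lost without Tg 1 and without any 1 of the WT arrays, at adjusted p of 0.0923 to 0.151 in limma. Of 9 myeloid markers with a probe, 5 were measured, with a summed intensity of 1798 to 1862 in Tg cells and 459 to 1301 in WT cells. In Tg cells most of that sum was Lyz1, which rose by 1.59 on the log2 scale (adjusted p = 0.0252, limma). Lyz2 had a log2 fold change of 1.45, Mpo of -1.85 and Csf1r of -0.05 (limma, adjusted p = 0.123, 0.371 and 0.875). S100a8 was detected on 0 Tg arrays and 3 WT arrays, and S100a9, Itgam, Camp and Ngp did not pass the detection filter. Markers of other cells also differed: the summed intensity of 3 dendritic, NK and gamma-delta T cell genes was 2527 to 3611 in Tg cells and 938 to 1312 in WT cells, with Itgax, Siglech, Klrb1c and Ncr1 not passing the filter. Most of that sum was Nkg7, a gene of cytotoxic cells, which rose by 1.57 on the log2 scale (limma, adjusted p = 0.0145). Sox13, a marker of gamma-delta T cells, lay the other way without overlap, at a log2 fold change of -1.31 (limma, adjusted p = 0.102), and Zbtb16 was dim, at log2 intensities of 4.75 to 4.79 in Tg cells and 4.39 to 4.72 in WT cells. The summed intensity of 12 DN3 genes was 88274 to 97094 in Tg cells and 61730 to 71467 in WT cells. Of these genes 10 had positive log2 fold changes. Rag1 and Rag2 had negative ones, -0.64 and -0.26, with overlapping groups (limma, adjusted p = 0.396 and 0.626). The part of these markers in the results was not tested.

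Galm, a mutarotase gene, Slc2a9, a urate transporter gene, and Bsg, which encodes a chaperone of lactate transporters, had log2 fold changes of 0.71, 0.32 and 1.10 (adjusted p = 0.168, 0.234 and 0.241, limma). In WT cells Galm, Slc2a9 and Bsg were dim, at log2 intensities of 4.65 to 4.97, 4.75 to 4.90 and 4.37 to 4.82. The lowest detected log2 intensity on each array was 4.62 to 4.70. Bsg was detected on 2 WT arrays and had 5.69, 6.87 and 4.76 in Tg 1, 2 and 3, so Tg 3 lay among the WT arrays. Tktl1, a transketolase-like gene detected on 1 Tg array and 3 WT arrays, had a log2 fold change of -0.40 (limma, adjusted p = 0.231).

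Among genes next to the pathway, those of pyruvate entry and the citric acid cycle had a median log2 fold change of -0.18. Of 28, 20 were negative and 0 were called in limma, where 4.23% of all genes were called. All Tg values lay below all WT values for 8 of the 28 and above them for 1, against 13.2% and 14.9% of all genes. For the 29 genes the median was -0.23 and these counts were 8 and 3. At an unadjusted p under 0.05, 2 of the 28 were lower, against 8.89% of all genes. These 2 were Pdha1, a subunit of pyruvate dehydrogenase, and Acly, which makes cytosolic acetyl-CoA, with -0.65 ± 0.19 and -0.37 ± 0.13 (SE; limma, adjusted p = 0.105 and 0.145). Pdha1 had log2 intensities of 10.66, 10.16 and 10.45 in Tg 1, 2 and 3 and of 10.83, 11.23 and 11.17 in WT 1, 2 and 3, without overlap. Subunits of the respiratory chain had a median of -0.05 over 50 genes, with 0 called in limma, where 4.23% of all genes were. At an unadjusted p under 0.05, 3 were lower, again against 8.89% of all genes. The ATP synthase gene Atp5b was the one with the smallest p, at -0.33 ± 0.08 (SE; limma, adjusted p = 0.0664). The median of the 29 genes was lower than that of the respiratory chain by a log2 difference of -0.18, which is less than the SD of that difference over the Tg arrays, 0.257. It was -0.071 without the detection filter and -0.084 without Tg 3.

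Other genes of the hypoxia pathway had a median of 0.08 over 24 genes, with 0 called in limma, where 4.23% of all genes were. At an unadjusted p under 0.05, 3 were lower, against 8.89% of all genes. The 3 were Hif3a, a HIF subunit that can oppose HIF1, Car12, a carbonic anhydrase gene, and Ankrd37, a HIF target. Their log2 fold changes were -1.01 ± 0.23, -0.90 ± 0.22 and -1.21 ± 0.36 (SE; limma, adjusted p = 0.0513, 0.0661 and 0.11). Vegfa, a HIF target that encodes a vascular growth factor, had 0.51 ± 0.26 (SE; limma, adjusted p = 0.333). The HIF targets Ankrd37 and Vegfa thus had log2 fold changes of opposite sign, but neither passed, and the groups overlapped for Vegfa.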

How the data were processed

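The deposited probe table came from GenomeStudio 1.9.0 without normalization, per the file headers. It holds the mean bead intensity of each probe and a detection score, which in the deposited values nears 1 for bright probes and was taken as the complement of a detection p-value. The deposited series values are the log2 of intensities averaged over the probes of a gene (largest difference 6.3e-07), and were used as an alternative. No source used here says whether background was subtracted. Titles gave the groups and the replicate numbers.

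Intensities were corrected with normexp by detection p-values (offset 16) and quantile normalized (limma 3.58.1, R 4.3.3). A probe was kept where its detection p was below 0.05 on 3 or more of 6 arrays, and the brightest kept probe stood for a gene. All 12426 genes entered lmFit and eBayes (with a trend, two-sided), and a call needed an adjusted p (Benjamini-Hochberg) below 0.05. The fit was tested on simulated data with noise drawn independently for each array. Such data lack the closeness of WT 2 and WT 3 and the distance of Tg 2, so the test does not bear on how stable the calls are. Names were matched to symbols and unambiguous synonyms of RefSeq on GRCm38.p6, so 1 probe named PK3, a synonym that 2 genes share, was left out. Promoters come from RefSeq, with the window at the outermost annotated start of a gene. Fold changes are on a log2 scale with an offset, which understates those of dim genes. The named genes are all members and, of the other lists, those called and some of the 4 with the smallest unadjusted p. Members, lists and tests were chosen with earlier results of these data known. A planned comparison of isozyme proteins was not run, since protein sequences were not used here. Alternatives covered background, offset, normalization, filter, variance model, array weights, replicate block, probe rule, threshold, averaging of WT 2 and WT 3, and leaving out each array.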

Additional observations from a re-analysis of the deposited data

How the results depend on the processing

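The number of arrays and of detected genes limits what could be called. The 3 members that fell became 1 with median scaling, 1 with the replicate block, 0 with WT 2 and WT 3 averaged, 14 with array weights and 0 to 5 with 1 array left out. Members that rose numbered 1 with array weights and 0 to 1 with 1 array left out. The 1 further glycolysis or pentose phosphate gene called became 0 among probes detected on all arrays, 0 with WT 2 and WT 3 averaged, 10 with array weights and 0 to 3 with 1 array left out. Genes called in the neighbouring lists, 0 as reported, numbered 1 without background correction, 1 with an offset of 50, 1 among probes detected on all arrays, 2 without a trend, 3 at a threshold of 0.1, 23 with array weights and 0 to 5 with 1 array left out. All genes called, 526 as reported, numbered 310 with median scaling, 312 without a filter, 264 with the replicate block, 36 with WT 2 and WT 3 averaged, 1049 at a threshold of 0.1, 4472 with array weights and 1 to 1709 with 1 array left out. The median of the members, -0.23, was -0.12 without a filter and -0.37 to -0.17 with 1 array left out. Its difference from the respiratory chain, -0.18, was -0.071 without a filter and -0.28 to -0.084 with 1 array left out. Causes were not tested.

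Ldha lost its call under median scaling, without a trend and with the replicate block (adjusted p = 0.228, 0.0715 and 0.0984, limma), and Tpi1 under median scaling and with the replicate block (adjusted p = 0.173 and 0.0704, limma), while Pgam2 kept its call under these 3. The labels do not say whether same-numbered Tg and WT arrays are paired. Deviations of same-numbered arrays correlated at -0.25, 0.11 and -0.22 for replicates 1, 2 and 3. These deviations were taken from the mean of only 3 arrays in each group, and WT 2 and WT 3 were close to each other. The values therefore cannot decide whether the arrays were paired.

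The sign turned for 5 uncalled members. With 1 array left out, the log2 fold change ran from -0.012 to 0.34 for Pfkm, from -0.41 to 0.15 for Pdk3, from -0.24 to 0.086 for G6pdx, from -0.064 to 0.19 for Slc16a3 and from -0.13 to 0.26 for Taldo1. It also turned for Slc16a3 with the series values (-0.0043) and with WT 2 and WT 3 averaged (-0.031), and for Taldo1 with array weights (-0.060).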

Other observations

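Pdk2, a pyruvate dehydrogenase kinase gene left out by the detection filter, was detected on 2 Tg arrays and 0 WT arrays. Its log2 intensities were 4.98, 5.59 and 4.54 in Tg 1, 2 and 3 and 4.37, 4.65 and 4.36 in WT 1, 2 and 3, so Tg 3 lay among the WT arrays. Pkm had a second, dimmer probe with a log2 difference of -0.95, against -0.60 for its brightest, and Tg 2 was the highest of all 6 arrays on it, at 8.03. On both Pkm probes Tg 1 and Tg 3 were below all WT arrays.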
